A study of Mus musculus with 10 samples.

Results

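The 7 genes described here bear on the transmitter phenotype of neurons of dorsal root ganglia (DRG) or of sympathetic cells. They were taken by symbol from the 55414 genes counted in each library. They are the vesicular glutamate transporter genes *Slc17a7* (VGLUT1), *Slc17a6* (VGLUT2) and *Slc17a8* (VGLUT3), the vesicular monoamine transporter gene *Slc18a2* (VMAT2), and the catecholamine synthesis genes *Th*, *Ddc* and *Dbh*. All 7 were found in the count files, and all 7 passed the filter on low counts, which asked for 10 or more counts in 5 or more libraries and kept 17490 genes.

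DRG of 5 control and 5 *WD1* cKO mouse embryos were sequenced in bulk at E18.5, to ask how gene expression differs when *Dach1*, which encodes a transcription factor, is deleted early. *WD1* cKO embryos were *Wnt1*Cre/+; *Dach1* flox/flox, so that Cre driven by *Wnt1* deleted the floxed exon of *Dach1* in the neural crest. Controls were littermates without Cre, and the labels give *Dach1* flox/flox for both groups. Per the study's methods the floxed line was of mixed C57Bl/6J and CD1 background. In the labels, the samples titled as control carry the Cre genotype and those titled as Cre carry the other, and the titles were followed here. *Dach1* was lower in every library titled as Cre than in any titled as control, with the levels given below. The neural crest gives rise to the neurons and glia of the DRG and also to sympathetic neurons and adrenal chromaffin cells, so Cre acts in each of these lineages. Each group was of 5 embryos, and which libraries shared a litter or a batch is not given in the sources used here. In bulk tissue, fewer cells of a type and less RNA per cell cannot be told apart.

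A VGLUT loads glutamate into synaptic vesicles, driven by the proton gradient of the vesicle, and a neuron that carries one can release glutamate. Somatosensory neurons are glutamatergic, and VGLUT2 is their main transporter, while VGLUT1 is used by large mechanosensory and proprioceptive neurons and VGLUT3 by some unmyelinated afferents. Catecholamines are made from tyrosine in steps. Tyrosine hydroxylase, the product of *Th*, makes L-DOPA and is the rate-limiting enzyme, aromatic amino acid decarboxylase, the product of *Ddc*, turns it into dopamine, VMAT2 packs dopamine into vesicles, and dopamine beta-hydroxylase, the product of *Dbh*, turns it into noradrenaline there. Sympathetic neurons use all these steps. In the DRG of the adult mouse, *Th* marks the C-LTMR, unmyelinated low-threshold mechanoreceptors of hairy skin that also carry VGLUT3.

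The sequences just upstream of *Th*, *Slc18a2* and *Ddc* are shown because these genes are used together in noradrenergic cells, in which homeodomain factors such as Phox2a act, and because *Th* also marks C-LTMR in the adult mouse. They come from RefSeq in the build GRCm38.p6 and are written 5′ to 3′ on the strand of the gene, without annotated exon bases. Capitals mark the cAMP response element TGACGTCA and the homeodomain core ATTA on either strand, where ATTA on the opposite strand reads TAAT. The *Th* sequence is the minus strand of chr7:142900015-142900245, that of *Slc18a2* the plus strand of chr19:59260628-59260877, and that of *Ddc* the minus strand of chr11:11898145-11898394, upstream of the first of its 2 listed starts. The window of its second start, the minus strand of chr11:11890409-11890658, also holds ATTA and is not shown. Which start of *Ddc* these cells or noradrenergic cells use was not tested, so the printed window may not be the one they use.
Th: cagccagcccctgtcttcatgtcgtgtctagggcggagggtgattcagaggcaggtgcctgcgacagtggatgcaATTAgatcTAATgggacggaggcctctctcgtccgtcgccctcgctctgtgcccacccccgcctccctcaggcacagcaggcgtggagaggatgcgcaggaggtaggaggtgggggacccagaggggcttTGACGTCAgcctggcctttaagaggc
Slc18a2: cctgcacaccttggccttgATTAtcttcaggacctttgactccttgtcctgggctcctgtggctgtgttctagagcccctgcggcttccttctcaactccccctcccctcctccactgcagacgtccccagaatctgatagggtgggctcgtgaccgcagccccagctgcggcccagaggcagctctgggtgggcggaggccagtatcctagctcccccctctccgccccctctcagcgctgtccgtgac
Ddc: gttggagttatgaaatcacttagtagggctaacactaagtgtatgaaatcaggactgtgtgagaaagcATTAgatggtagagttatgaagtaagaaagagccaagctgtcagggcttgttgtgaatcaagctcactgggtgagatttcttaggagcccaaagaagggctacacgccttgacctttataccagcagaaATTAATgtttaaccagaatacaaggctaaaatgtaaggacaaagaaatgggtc
Within the 250 bases before the start, the window of *Th* held TGACGTCA, with its first base 45 bases before the start, and the windows of the other 6 genes did not hold these letters. Of the 32544 distinct RefSeq windows of this length, 1.55% held TGACGTCA, which contains the shorter TGACG, found in 17.8%. ATTA was found in 54.8% of all windows and in at least 1 window of each of the 7 genes, so it did not set the catecholamine genes apart from the glutamate transporter genes. A match is a description of the letters and not a site. The window of *Dbh* lies inside its annotated first exon and is not shown.

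Per length of exon, the genes spanned more than 2 orders of magnitude in control DRG. Levels between genes are given as CPM (counts of a gene per 1000000 counts of the library) per kb of exon, and all other levels as CPM. *Slc17a6* was at 76.5 ± 5.02 CPM per kb (SD, n = 5), above 97.7% of the 17449 tested genes with a known length. *Th* followed at 13.4 ± 4.02 CPM per kb (SD, n = 5), above 77.6% of them, and *Slc17a7* at 6.38 ± 1.34 CPM per kb (SD, n = 5), above 58.7%. By the median of the control libraries, the order went on with *Slc18a2* at 3.09, *Slc17a8* at 1.25, *Dbh* at 0.326 and *Ddc* at 0.229 CPM per kb. From *Slc17a6* down to *Slc17a8*, each gene was above the next in 10 of 10 libraries, although the ranges of *Slc17a7* and *Slc18a2* overlapped in control and those of *Th* and *Slc17a7* in *WD1* cKO libraries. *Slc17a8* was above *Dbh* in 5 libraries and *Dbh* above *Ddc* in 7, so the order of the last 3 did not hold beyond their spread.

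**Figure D1:**
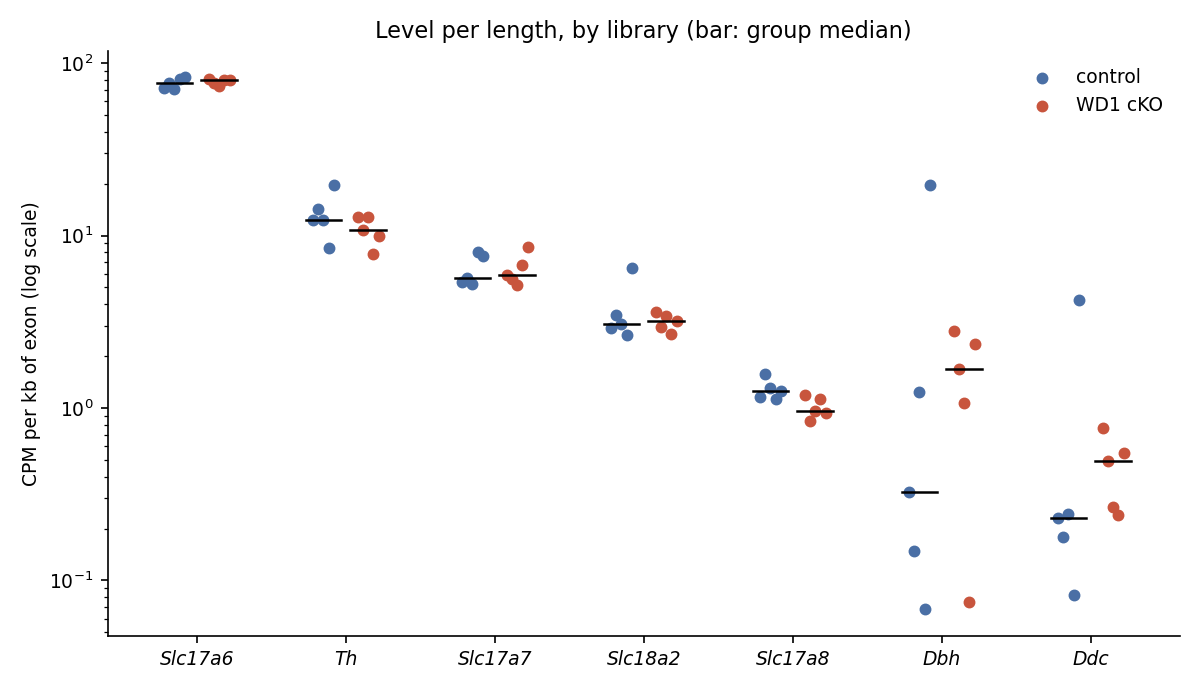
Level of the 7 transmitter genes per length, in CPM per kb of exon on a log scale, in 5 control and 5 *WD1* cKO libraries. Points are libraries and bars group medians, with *Slc17a6* near 76.5 CPM per kb on top and *Dbh* and *Ddc* spread widely between libraries.

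None of the 7 genes had an adjusted p-value under 0.05 between the genotypes (edgeR's quasi-likelihood test, Benjamini-Hochberg adjustment, adjusted p = 1.00 for each), against 7 of all 17490 genes, or 0.0400%. Without adjustment, 1 of the 7, *Slc17a8*, had a p-value under 0.05, against 4.50% of all genes. The groups overlapped in CPM for all 7, while they did not overlap for 1.06% of all genes. The median log2 fold change over all genes was 0.00022 and the median absolute one 0.053. *Dach1* itself was at 35.02 to 41.6 CPM in control and 19.1 to 20.7 CPM in *WD1* cKO libraries, without overlap, with a log2 fold change of -0.92 (edgeR, SE 0.050), and its count includes reads from exons outside the deleted one.

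**Figure D2:**
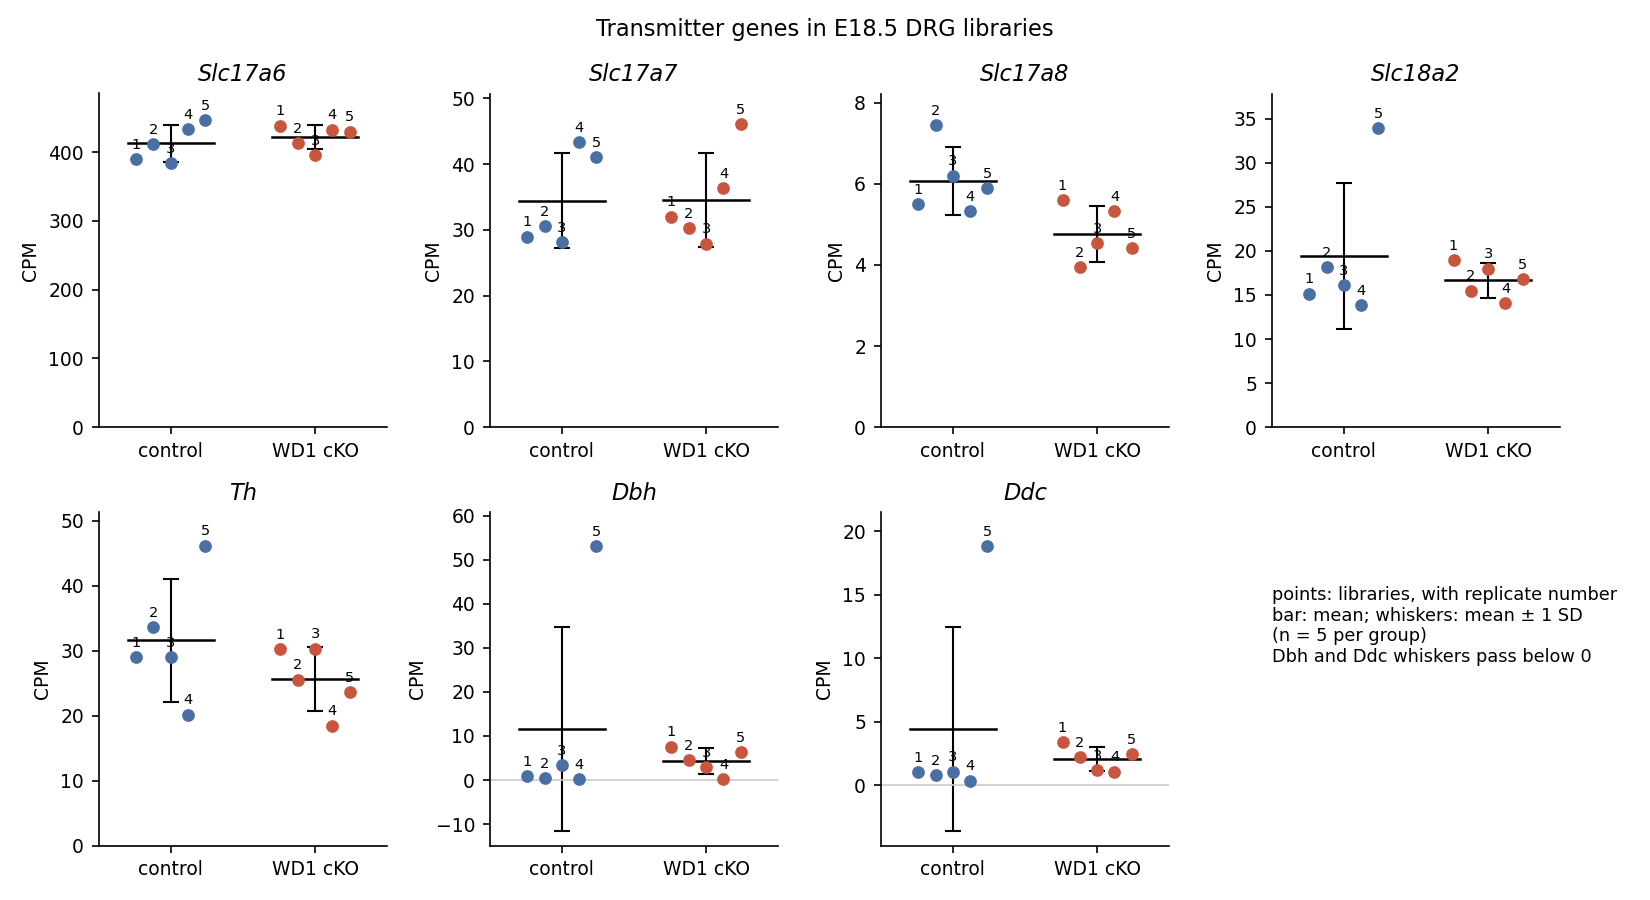
Level of each gene in CPM in every control and *WD1* cKO library, with the replicate number at each point, the mean as a bar and the mean ± 1 SD as whiskers (n = 5). The groups overlap for every gene, and control replicate 5 stands above the other control libraries for *Slc18a2*, *Th*, *Dbh* and *Ddc*.

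*Slc17a6* (ENSMUSG00000030500, chromosome 7), which encodes the main vesicular glutamate transporter of the DRG, was the most even of the 7 genes. It was at 390, 412, 384, 434 and 446 CPM in control replicates 1 to 5 and at 439, 413, 396, 433 and 430 CPM in *WD1* cKO replicates 1 to 5. All *WD1* cKO libraries lay within the range of the controls. The log2 fold change, *WD1* cKO over control, was 0.031 (standard error, SE, 0.049, edgeR adjusted p = 1.00).

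*Slc17a7* (ENSMUSG00000070570, chromosome 7), the VGLUT1 gene, was at 28.9, 30.6, 28.1, 43.4 and 41.1 CPM in control and at 31.97, 30.2, 27.9, 36.3 and 46.0 CPM in *WD1* cKO replicates 1 to 5. In both groups replicates 4 and 5 were above replicates 1 to 3, and the groups overlapped over almost their whole range. The log2 fold change was 0.0024 (SE 0.15, edgeR adjusted p = 1.00). The summed level of the 6 blood markers was 2468, 1635, 1073, 155 and 183 CPM in control and 1136, 702, 509, 243 and 189 CPM in *WD1* cKO replicates 1 to 5, so that replicates 4 and 5 were lowest in both groups. The part of blood in the level of *Slc17a7* was not tested.

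*Slc17a8* (ENSMUSG00000019935, chromosome 10), the VGLUT3 gene, had a lower mean in *WD1* cKO libraries but did not pass the adjusted threshold. It was at 5.50, 7.44, 6.21, 5.33 and 5.89 CPM in control and at 5.59, 3.95, 4.53, 5.33 and 4.41 CPM in *WD1* cKO replicates 1 to 5. *WD1* cKO replicates 2, 3 and 5 were below every control library, replicate 4 was level with the lowest one, and replicate 1 was within the control range. The means were 6.07 ± 0.838 CPM (SD, n = 5) in control and 4.76 ± 0.681 CPM (SD, n = 5) in *WD1* cKO libraries. The log2 fold change was -0.36 (SE 0.12, edgeR adjusted p = 1.00). The unadjusted p-value was under 0.05, and 2.38% of all genes were lower with a p-value under 0.05. These levels rest on 104 to 169 counts per library.

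The 3 transporters together were made up almost wholly of VGLUT2. Of their summed CPM per kb, *Slc17a6* held 90.9% ± 0.858 (SD, n = 5) in control and 91.4% ± 1.23 (SD, n = 5) in *WD1* cKO libraries. *Slc17a7* held 7.53% ± 1.06 and 7.45% ± 1.27 (SD, n = 5 each), and *Slc17a8* 1.54% ± 0.254 and 1.18% ± 0.145 (SD, n = 5 each), in the same order. A ratio within a library does not depend on how that library was scaled. The log2 ratio of *Slc17a8* to *Slc17a6* was -6.09 ± 0.224 (SD, n = 5) in control and -6.47 ± 0.175 (SD, n = 5) in *WD1* cKO libraries, a difference of -0.38 (exact permutation test, two-sided p = 0.0238, adjusted p = 0.0714 over 3 ratios). That of *Slc17a7* to *Slc17a6* differed by -0.027 (exact permutation test, two-sided p = 0.833, adjusted p = 0.833). The smallest p that 5 libraries against 5 allow is 0.00794.

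None of the genes that supply glutamate to these transporters passed a test between the groups. Of the 13 genes of glutamate supply and loading, among them the glutamine transporter genes *Slc38a1* and *Slc38a2*, 13 were tested and 0 had a p-value under 0.05 in either direction, with a median log2 fold change of 0.032. Without control replicate 3 the astrocyte and glia transporter gene *Slc1a3* was higher (0.22, adjusted p = 1.00 from edgeR), and without control replicate 5 *Slc1a2*, another glutamate uptake gene, was lower (-0.53, adjusted p = 0.882 from edgeR), each with an unadjusted p-value under 0.05. Of the 13 genes of the vesicular proton pump and the vesicle core, 1 was lower and 0 were higher with a p-value under 0.05, with a median of -0.037. Over all genes 2.38% were lower at that threshold. The lower gene of this list was *Syn1*, which encodes synapsin I, with a log2 fold change of -0.13 (SE 0.060, edgeR adjusted p = 1.00), and without control replicate 3 or control replicate 5 the count was 0.

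Of the 8 genes of other fast transmitters, 5 were too low to be tested, and 5 were highest in control replicate 3. *Gad1*, which encodes a GABA synthesis enzyme, had a log2 fold change of -1.74 (SE 0.66, edgeR adjusted p = 1.00) and was the 1 of 3 tested genes of this list with a p-value under 0.05, where 2.38% of all genes were lower, with a list median of -0.070. It was at 7.71 CPM in control replicate 3 and at 0.457 to 1.10 CPM in the other 9 libraries. Without that library its log2 fold change was -0.43 with an unadjusted p-value above 0.05, where 4.53% of all genes had a p-value under 0.05. The glycine transporter gene *Slc6a5* (4.65 CPM) and the vesicular inhibitory transporter gene *Slc32a1* (3.29 CPM) were also highest there. All 8 spinal cord markers were highest in control replicate 3, where they summed to 26.9 CPM, against 0.588 to 1.15 CPM in the other control and 0.463 to 1.85 CPM in the *WD1* cKO libraries. Their part in the level of *Gad1* was not tested. *Chat*, which makes acetylcholine, was at 0 to 0.114 CPM in all 10 libraries.

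*Th* (ENSMUSG00000000214, chromosome 7), the rate-limiting enzyme of catecholamine synthesis, had groups that overlapped widely. It was at 29.0, 33.7, 29.0, 20.1 and 46.2 CPM in control and at 30.2, 25.5, 30.3, 18.47 and 23.6 CPM in *WD1* cKO replicates 1 to 5. Control replicate 5 was highest of all libraries, and replicate 4 was lowest in each group. The means were 31.6 ± 9.50 CPM (SD, n = 5) in control and 25.6 ± 4.97 CPM (SD, n = 5) in *WD1* cKO libraries. The log2 fold change was -0.30 (SE 0.19, edgeR adjusted p = 1.00). Without control replicate 5 it was -0.12, and without control replicate 4 it was -0.42 with an unadjusted p-value under 0.05 (adjusted p = 0.956 from edgeR in both).

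*Slc18a2* (ENSMUSG00000025094, chromosome 19), which encodes VMAT2, was at 15.1, 18.1, 16.1, 13.9 and 33.9 CPM in control and at 18.9, 15.5, 18.0, 14.1 and 16.8 CPM in *WD1* cKO replicates 1 to 5. Control replicate 5 was above the other 9 libraries, which lay between 13.9 and 18.9 CPM. The log2 fold change was -0.22 (SE 0.21, edgeR adjusted p = 1.00) and turned to 0.078 without control replicate 5 (adjusted p = 0.951). *Slc18a2* overlaps *Gm29261* on the opposite strand, and the strand setting of the counting is not given in the sources used here, so reads of the 2 genes may be mixed.

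*Ddc* (ENSMUSG00000020182, chromosome 11) and *Dbh* (ENSMUSG00000000889, chromosome 2) had the widest spread. The counts of *Dbh* in replicates 1 to 5 were 18, 9, 71, 5 and 1208 in control and 180, 119, 87, 4 and 219 in *WD1* cKO DRG. This is 0.877, 0.396, 3.34, 0.184 and 53.1 CPM in control and 7.57, 4.52, 2.88, 0.203 and 6.31 CPM in *WD1* cKO libraries. Replicate 4 was lowest in both groups, with 95% exact Poisson intervals, which cover counting error only, of 0.0597 to 0.429 CPM in control and 0.0553 to 0.520 CPM in *WD1* cKO. The other *WD1* cKO libraries were within a range of 2.88 to 7.57 CPM, above control replicates 1 and 2 and far below control replicate 5.

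*Ddc* was at 1.02, 0.793, 1.08, 0.368 and 18.8 CPM in control and at 3.41, 2.20, 1.19, 1.07 and 2.45 CPM in *WD1* cKO replicates 1 to 5. Again control replicate 5 was far above all others, and apart from it the highest control library was at 1.08 CPM against 1.07 CPM for the lowest *WD1* cKO library. *Ddc* overlaps the antisense gene *1700042O10Rik*, with the same limit on strand.

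The direction of *Dbh* and *Ddc* between the genotypes depended on control replicate 5. With all libraries, the log2 fold change was -1.40 for *Dbh* (SE 1.15) and -1.09 for *Ddc* (SE 0.90, edgeR adjusted p = 1.00 for both). Without control replicate 5 it was 1.90 for *Dbh* (adjusted p = 0.882 from edgeR) and 1.37 for *Ddc* (adjusted p = 0.853 from edgeR), each with an unadjusted p-value under 0.05. In that fit 5.56% of all genes had a p-value under 0.05, and 2.71% were higher with a p-value under 0.05. The adjusted p-values stayed above 0.05 both with and without this library, so no direction was called for either gene. Over the 17381 genes tested in both fits, 35 changed by more than 1 on the log2 scale with all libraries, and 3 of these changed by more than 1 in the opposite direction without control replicate 5. The 3 were *Dbh*, *Ddc* and the noradrenaline transporter gene *Slc6a2*, which went from -1.94 to 2.06. This count was made after the values were seen.

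**Figure D3:**
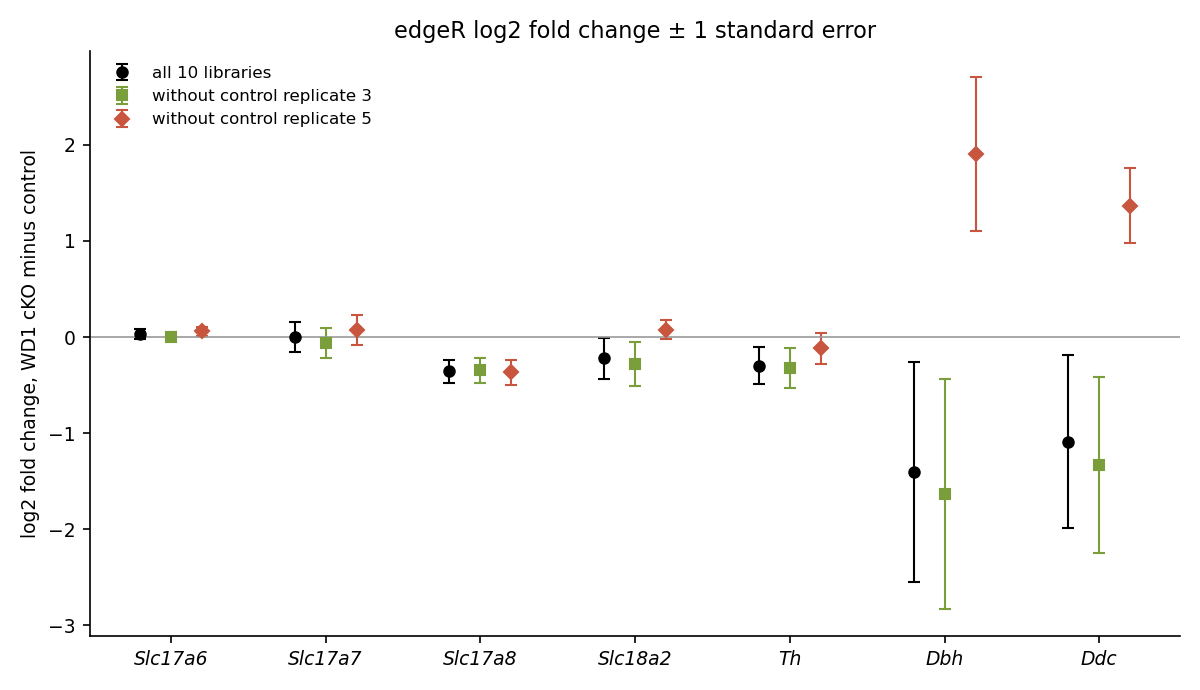
Log2 fold change of the 7 genes, *WD1* cKO minus control, from edgeR with 1 standard error on each side, for all 10 libraries, without control replicate 3 and without control replicate 5. *Dbh* moves from -1.40 to 1.90 and *Ddc* from -1.09 to 1.37 without control replicate 5, while *Slc17a6* and *Slc17a8* stay close to their values.

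Some markers of sympathetic neurons, such as *Slc6a2* and *Hand2*, were high and low in the same libraries as *Dbh*, but the summed list was not. Of the 13 genes of the sympathetic list, 10 were highest of all libraries in control replicate 5. Their summed level was 138 to 235 CPM in the other control, 348 CPM in control replicate 5 and 145 to 208 CPM in the *WD1* cKO libraries, with the lowest sum in replicate 4 in both groups. Most of this sum outside control replicate 5 was *Dlk1*, at 95.6 to 181 CPM. Outside that library the sum did not follow *Dbh*. It was 206 CPM in *WD1* cKO replicate 3 and 164 CPM in *WD1* cKO replicate 5, where *Dbh* was at 2.88 and 6.31 CPM. *Slc6a2*, which takes noradrenaline back up, was at 1.66, 0.440, 3.57, 0.331 and 112 CPM in control and at 9.47, 5.69, 3.70, 0.254 and 10.8 CPM in *WD1* cKO replicates 1 to 5. *Hand2*, a sympathetic transcription factor gene, was at 5.23 CPM in control replicate 5 and at 0 to 1.01 CPM elsewhere, and it was at 0 only in *WD1* cKO replicate 4. The chromaffin cell marker *Pnmt*, which makes adrenaline, was at 0 to 0.114 CPM and at 0 in control replicate 5. The 6 muscle markers were also highest there, with a sum of 201 CPM against 24.7 to 124 CPM in the other control and 50.6 to 111 CPM in the *WD1* cKO libraries. The part of sympathetic or other tissue in the levels of *Dbh*, *Ddc*, *Slc18a2* and *Th* was not tested.

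Of the 11 sympathetic genes tested, 0 had a p-value under 0.05 in either direction with all libraries, with a median log2 fold change of -0.31. Without control replicate 5, 9 were tested, 1 was higher, which was *Slc6a2* (2.06, adjusted p = 0.882 from edgeR), and the median was 0.42. The 14 tested genes of monoamine synthesis, storage, reuptake and breakdown had 0 with a p-value under 0.05 and a median of 0.052. Without control replicate 5, 3 of them were higher with a p-value under 0.05, and the median was 0.12. In that fit 2.71% of all genes were higher at this threshold. Besides *Slc6a2* these were *Gch1*, which makes the cofactor of tyrosine hydroxylase (log2 fold change 0.64, adjusted p = 0.718 from edgeR), and *Slc18a1*, which encodes VMAT1 (0.64, adjusted p = 0.882 from edgeR). The library left out held the highest control value of each, 112 CPM for *Slc6a2*, 8.57 CPM for *Gch1* and 1.19 CPM for *Slc18a1*. Leaving it out therefore raises their log2 fold changes. *Slc18a1* was also the 1 of 5 tested chromaffin cell genes with a p-value under 0.05 in that fit, while 0 of them had one with all libraries, with a median of -0.044. The breakdown gene *Maoa* had a log2 fold change of 0.046 (adjusted p = 1.00 from edgeR with all libraries).

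Across the 10 libraries, *Th* followed *Dbh* only loosely. Relations used log2 CPM with a prior count of 1, and p-values were adjusted over the 3 relations computed, of which 2 are given. *Th* and *Dbh* had Pearson's r = 0.690 (permutation p = 0.0262, adjusted p = 0.0394) and Spearman's rho = 0.455 (permutation p = 0.194, adjusted p = 0.194). Without control replicate 5 and *WD1* cKO replicate 4, the 2 farthest from the median of *Th*, r was 0.190 (permutation p = 0.656), so the relation rests on these libraries. *Th* and *Slc17a8*, the 2 genes shared by C-LTMR, had r = 0.392 (permutation p = 0.260, adjusted p = 0.260) and rho = 0.552 (permutation p = 0.106, adjusted p = 0.159), and without the same libraries r was 0.497 (permutation p = 0.211). With each group centred on its mean, r was 0.811 for *Th* and *Dbh* and 0.188 for *Th* and *Slc17a8*.

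Over all 10 libraries, the ratio to *Dbh* ranged from 1.07 to 2.11 for *Slc6a2*, from 0.324 to 5.25 for *Ddc*, from 0.870 to 110 for *Th* and from 0.639 to 75.4 for *Slc18a2*. In the 6 libraries with at least 50 counts of *Dbh*, which left out 3 control libraries and *WD1* cKO replicate 4, *Ddc* was at 0.324 to 0.487 times the CPM of *Dbh*, and in the 4 libraries left out it was at 1.17 to 5.25 times. The libraries were split by *Dbh*, which is also the denominator, so higher ratios where it is low are in part built in. *Th* was at 0.870 to 10.5 times and *Slc18a2* at 0.639 to 6.24 times in the same 6 libraries. In replicate 4 of both groups, where *Dbh* was counted 5 times or fewer, *Th* was still at 20.1 and 18.47 CPM and *Slc18a2* at 13.9 and 14.1 CPM. *Ddc* was counted 10 times in control and 21 times in *WD1* cKO there, at 2.00 and 5.25 times *Dbh*, so all 3 genes were above *Dbh* where it was near 0. The log2 ratio of *Th* to *Dbh* differed between the groups by -0.93 (exact permutation test, two-sided p = 0.508, adjusted p = 0.762), within a spread of 2.77 in control and 1.80 in *WD1* cKO libraries (SD, n = 5 each).

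**Figure D4:**
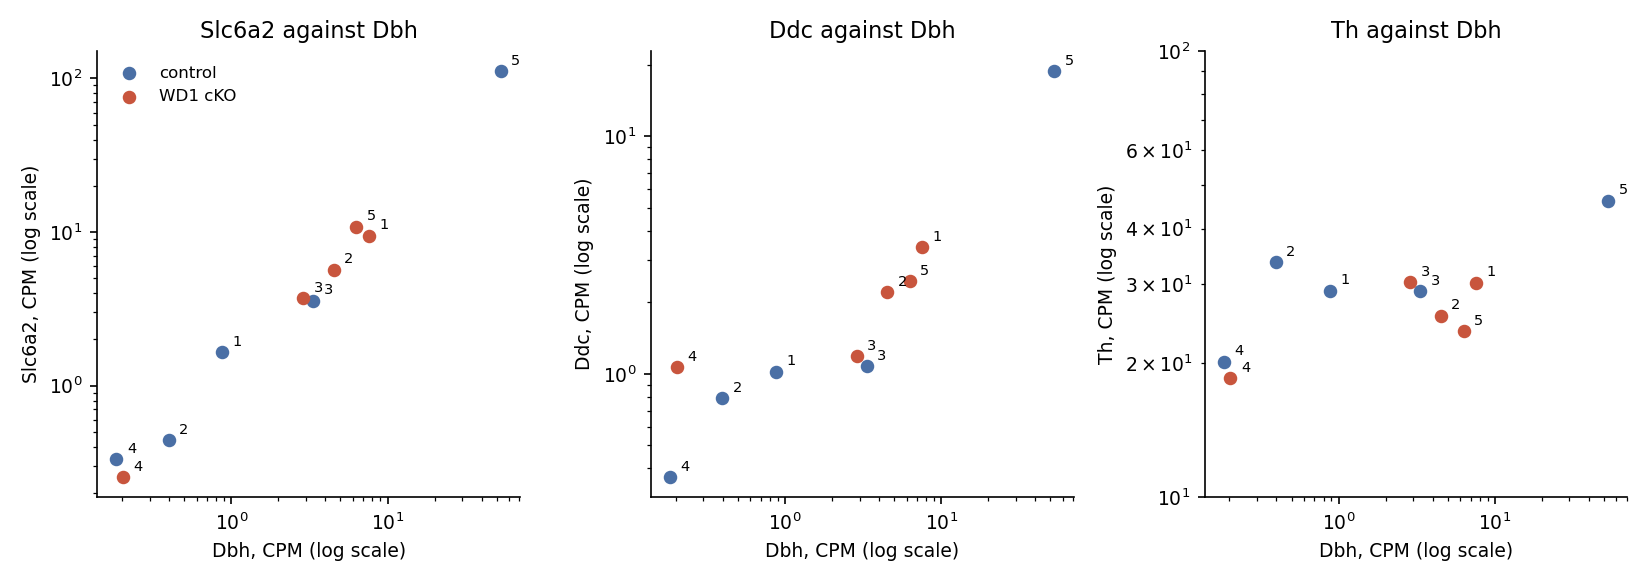
*Slc6a2*, *Ddc* and *Th* against *Dbh*, each in CPM on log axes, in 5 control and 5 *WD1* cKO libraries with replicate numbers. *Slc6a2* rises with *Dbh* over the whole range and *Ddc* is highest where *Dbh* is, while *Th* stays between 18.47 and 33.7 CPM outside control replicate 5.

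The genes whose level was most like that of each member were found by Pearson's r of log2 CPM over the 10 libraries with each group centred, as a description. All values share the same libraries and their depth. The 5 genes of each member are the highest among the 17490 genes tested, over few libraries. High values therefore follow in part from this choice. For *Dbh* the 5 highest included *Slc6a2* (r = 0.993), *Hand2*, *Hand2os1* and *Phox2a*, and without control replicate 5 r was 0.987 for *Slc6a2* and from 0.943 to 0.952 for the other 3. For *Ddc* they were *Phox2a* (r = 0.962), *Gm47270*, *Dhx40*, *Chrna3* and *Slc10a4*, with r from 0.639 to 0.937 without control replicate 5. For *Slc18a2* they were *Slx4ip* (r = 0.950), *Phox2a*, *Slc10a4*, *Ddc* and *Sctr*, and for the last of these r fell from 0.926 to 0.515 without control replicate 5. *Slc18a2* and *Th*, in contrast, had r = 0.869 with and 0.909 without control replicate 5.

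For *Th* the 5 genes were *Sub1* (r = 0.951), *Mycn*, *Nudcd1*, *Hspe1* and *Hand2os1*, all at r from 0.854 to 0.920 without control replicate 5. For *Slc17a6* they were *Dnm1l* (r = 0.978), *Gm5113*, *Erlec1*, *Lpgat1* and *Pfkp*. For *Slc17a7* they were *Lgals8* (r = 0.992), *F2rl2*, *Vamp1*, *Wipf3* and *Glrb*, and for *Slc17a8* *Med8* (r = 0.969), *Zfp90*, *Nsun7*, *Hsf2* and *Gm19391*. *Slc17a6* and *Slc17a7* had r = 0.796 with each other, and *Slc17a8* had r = 0.152 with *Slc17a6* and -0.19 with *Slc17a7*.

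The genes of the C-LTMR list had log2 fold changes between -0.068 and 0.14. This list is not specific to C-LTMR. The study also uses *Ret* to mark other low-threshold mechanoreceptors and reports it in nociceptors. The summed list was at 2484 to 2783 CPM in control and 2561 to 2793 CPM in *WD1* cKO libraries, of which *Tafa4* was a small part. Whether C-LTMR changed was therefore not tested by this list. Of the 9 genes of this list, which does not hold *Th* or *Slc17a8*, 9 were tested, 0 were lower and 1 was higher with a p-value under 0.05, where 2.12% of all genes were higher at that threshold, and the median log2 fold change was 0.023. The higher one was *Gfra2*, a GDNF family receptor gene, at 88.8, 90.5, 102, 97.3 and 103 CPM in control and 102, 111, 107, 110 and 101 CPM in *WD1* cKO replicates 1 to 5. Its log2 fold change was 0.14 (SE 0.047, edgeR adjusted p = 1.00), and the groups overlapped. *Tafa4*, a cytokine gene of these cells, was at 66.4 to 76.4 CPM in control and 66.1 to 77.4 CPM in *WD1* cKO libraries, with a log2 fold change of 0.023 (adjusted p = 1.00 from edgeR). *Zfp521*, *Cdh9* and *Runx1* had log2 fold changes of -0.049, -0.049 and -0.068, and *Bhlha9*, *P2ry1*, *Ret* and *Piezo2* of 0.067, 0.083, 0.083 and 0.013, each with a p-value above 0.05 from edgeR. Without control replicate 5, *Ret* was higher as well (0.13, with an unadjusted p-value under 0.05, adjusted p = 0.882 from edgeR).

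**Figure D5:**
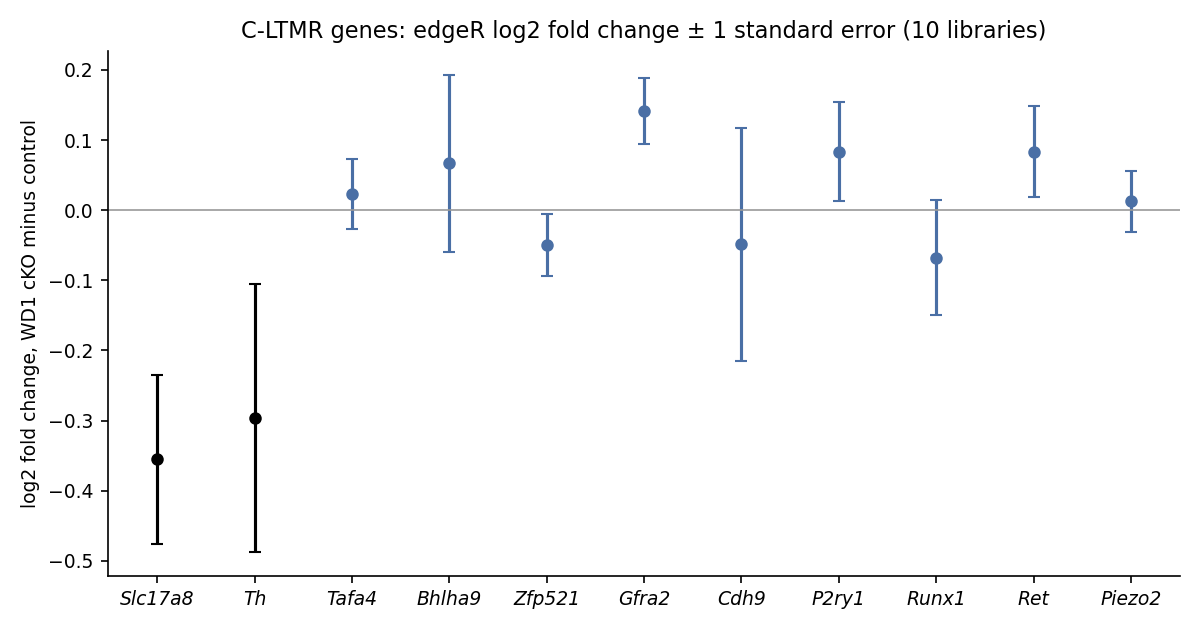
Log2 fold change, *WD1* cKO minus control, of *Slc17a8* and *Th* and of the 9 genes of the C-LTMR list, from edgeR over 10 libraries with 1 standard error on each side. The list is not specific to C-LTMR. *Slc17a8* is at -0.36 and *Th* at -0.30, while the other 9 lie between -0.068 and 0.14.

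The tissue label was checked against markers of the cells a DRG holds. The 8 sensory neuron genes were at a summed 5693 to 6094 CPM in control and 5673 to 5911 CPM in *WD1* cKO libraries, and the 7 glia genes at 841 to 982 and 833 to 1031 CPM. Over all genes, 2.38% were lower and 2.12% higher with a p-value under 0.05, with all libraries. Of the sensory neuron genes 1 was lower with a p-value under 0.05, the transcription factor gene *Drgx* (log2 fold change -0.11, SE 0.044, edgeR adjusted p = 1.00), and all 8 had a negative log2 fold change, with a median of -0.090. Whether the amount of sensory neurons or of connective tissue changed was not tested. The count of sensory neuron genes was 0 without control replicate 3 and 2, *Drgx* and *Pou4f1*, without control replicate 5. In the latter fit 5.56% of all genes had a p-value under 0.05 in either direction. Of the glia genes 0 had a p-value under 0.05, with a median of 0.023. Of the 5 genes of the motor neuron list 2 were tested and *Isl2* was lower (-0.091, SE 0.031, edgeR adjusted p = 1.00). The list summed to 191 to 207 CPM in control and 185 to 193 CPM in *WD1* cKO libraries. *Mnx1*, which defines motor neurons, was at 0 in 6 libraries and at most at 0.044 CPM, so the list sum did not measure motor neurons. Which cells carried *Isl2* was not tested. Of the 6 blood and the 6 muscle genes 0 had a p-value under 0.05, with medians of -0.94 and -0.64, and of the 5 connective tissue genes *Lum* was higher (0.22, SE 0.087, edgeR adjusted p = 1.00), with a median of 0.11. All 5 connective tissue genes had a positive log2 fold change. Without control replicate 3, 4 of the 5 were higher with an unadjusted p-value under 0.05, where 4.53% of all genes had one in either direction. These were *Col1a1* (0.28), *Col1a2* (0.18), *Col3a1* (0.19) and *Lum* (0.29), and none passed the adjusted threshold. Without control replicate 5 the blood count was 1, *Hba-a1*, which was lower. The 1 spinal cord gene tested, *Lmx1b*, had a log2 fold change of -1.89 (adjusted p = 1.00 from edgeR), which was 0.19 without control replicate 3 and -2.15, with an unadjusted p-value under 0.05, without control replicate 5. The total count was 20465132 to 27528784 in control and 19757596 to 34796562 in *WD1* cKO libraries, and any 2 libraries of 1 group were further apart than counting error allows, with a chi-square of 4.35 to 15.02 for each degree of freedom.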

How the data were processed

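Stranded mRNA libraries were sequenced from the DRG of 5 control embryos and 5 *WD1* cKO embryos. Per the labels and the study's methods, the authors demultiplexed with bcl2fastq 2.20.0.422, aligned with STAR 2.7.8a to GRCm39 and counted with featureCounts 2.0.1. The authors deposited raw read counts per gene for each library, without normalization, and the strand setting and the handling of multi-mapping reads are not given in the sources used here. Libraries were grouped by their titles.

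The fit used edgeR 4.0.16 in R 4.3.3. A gene needed 10 or more counts in 5 or more libraries. Library sizes were scaled by TMM, and genotype was the 1 term of a quasi-likelihood test, with Benjamini-Hochberg adjustment over all 17490 genes tested. CPM are TMM-scaled, and log2 CPM used a prior count of 1. Symbols and exon lengths came from GENCODE M21 on GRCm38 and matched 52133 of 55414 genes, and GRCm38 coordinates are given for the RefSeq sequences only. Ratios were compared by two-sided exact permutation tests, and correlations used 100000 resamples. The fit was tested on simulated data.

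The 7 genes and the gene lists were chosen with earlier results of these data known. Genes are named where they are members, where a list gene had a p-value under 0.05, where a result turns on a sympathetic, C-LTMR or catecholamine gene, or where they are among the 5 most like a member. Alternatives were DESeq2's size factors, DESeq2 1.42.0, no filter on low counts, robust dispersions, other prior counts, the replicate number as a block and each library left out in turn. Leaving out control replicates 3 and 5 together, and number 5 with the block, were chosen after seeing the data. Library totals ran from 19757596 to 34796562 counts, so that 0.184 CPM of *Dbh* rests on 5 counts. Results for some list genes, and 1 relation, are not reported here.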

Additional observations from a re-analysis of the deposited data

Results flagged for a closer look

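The highest and the lowest of the 5 libraries of a group were compared with their nearest neighbour, as a share of the distance between highest and lowest. This covered the 7 transmitter genes, *Dach1* and the 3 ratios, and in 3 of 22 groups 1 library stood far apart by Dixon's criterion, where chance alone gives about 1.10. All 3 were control replicate 5. *Slc18a2* was at 33.9 CPM there, against 13.9 to 18.1 CPM in the other control libraries. *Dbh* was at 53.1 CPM, against 0.184 to 3.34 CPM, and *Ddc* at 18.8 CPM, against 0.368 to 1.08 CPM. The 3 values come from 1 library and are not independent of each other.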

How the results depend on the processing

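None of the 7 genes passed the adjusted threshold in any of the 17 alternatives, edgeR or DESeq2, and the Wald test gave no p-value for *Dbh* and *Ddc*. *Slc17a6*, *Slc17a8* and *Th* kept their direction in all 17, and the unadjusted p-value of *Slc17a8* was under 0.05 in 16. The lowest was 0.00546 (edgeR, without *WD1* cKO replicate 1). With the replicate block and without the libraries of number 5 it was 0.0655 (edgeR). With each library left out in turn, log2 fold changes ranged from -0.13 to 0.10 for *Slc17a7*, -0.32 to 0.078 for *Slc18a2*, -1.73 to 1.90 for *Dbh* and -1.40 to 1.37 for *Ddc*. *Slc18a2*, *Dbh* and *Ddc* reversed only without control replicate 5, and *Slc17a7* without control replicates 1, 2 or 3 or *WD1* cKO replicates 4 or 5. Without control replicates 3 and 5 together, *Slc18a2* was at 0.088, *Dbh* at 3.22 and *Ddc* at 1.54. The cause was not tested.

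Same-numbered libraries of the 2 groups had correlated deviations of 0.329, 0.0404, 0.320, 0.354 and 0.390. Of the 10 libraries 3 correlated best with another number and the rest with their own. The numbers thus do not establish pairs, although same-numbered libraries deviated alike in part. With the replicate block, log2 fold changes were -0.026 for *Dbh*, -0.12 for *Ddc* and -0.29 for *Th*, and 8 of all genes passed the adjusted threshold. The block lowered the SE of each member except *Slc17a8*, for which it went from 0.12 to 0.13. For *Slc17a7* the SE went from 0.15 to 0.061 and for *Th* from 0.19 to 0.13. With the replicate block and without the libraries of number 5, log2 fold changes were -0.039 for *Slc17a7*, 0.065 for *Slc18a2*, 1.69 for *Dbh* and 1.21 for *Ddc*. Over all genes, 7 passed in edgeR, against 19 with DESeq2's Wald test, 4 without control replicates 3 and 5, and 3 to 6 with each library left out.

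With each library left out, the difference in the log2 ratio of *Slc17a7* to *Slc17a6* ranged from -0.13 to 0.044 and that of *Slc17a8* to *Slc17a6* from -0.44 to -0.31, which had an adjusted p-value under 0.05 only without control replicate 4 (exact permutation test, adjusted p = 0.0238). As 5 pairs the latter had an exact sign-flip p of 0.125, where 0.0625 is the smallest possible. The correlation of *Th* with *Dbh* ranged from 0.44 to 0.85 and lost its adjusted p-value under 0.05 without control replicates 3, 4 or 5 or *WD1* cKO replicates 1, 3 or 4. Low counts limit *Dbh* and *Ddc*, with 4 to 18 counts of *Dbh* in 4 libraries.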
